A study of Mus musculus with 18 samples.

Results

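The genes described here are 10 transcripts that ERK signalling induces and whose products act back on it or carry it onward. They are the dual-specificity phosphatases Dusp1, Dusp2, Dusp4, Dusp5 and Dusp6, the Sprouty genes Spry1, Spry2 and Spry4, and the ETS transcription factors Etv4 and Etv5. They were taken by gene symbol, with the counts of all transcript models of a symbol added, and are 10 of 32765 symbols in the count table. Of the 10, 9 passed the filter on low counts, as did 12171 symbols in all, and each of the 9 had at least 22 counts in every library. Spry1 did not pass and had 0 counts throughout. The cells were PyMT-BO1, a mouse mammary carcinoma line of luminal B-like type on the C57BL/6 background, and all of them lacked their own integrin β3. A retroviral construct had put back functional human integrin β3 (hβ3), a signalling-deficient integrin β3 mutant (Δβ3), or nothing (the empty vector pMx). Every line was kept for 24 h in 10 nM docetaxel, a microtubule-stabilising taxane, or in DMSO. The 6 groups were therefore hβ3 docetaxel, hβ3 DMSO, Δβ3 docetaxel, Δβ3 DMSO, pMx docetaxel and pMx DMSO, with 3 cultures and 3 RNA libraries each. Each construct was represented by a single line. A p-value here refers to variation among cultures of that line, and a contrast of lines contains every way in which they differ, not the construct alone.

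Growth factor receptors and integrins feed the RAS, RAF, MEK and ERK kinase cascade, and active ERK switches on a group of early genes. Several of these form a negative feedback loop. The dual-specificity phosphatases remove phosphate from both regulatory residues of MAP kinases. Dusp6 acts in the cytoplasm and Dusp5 in the nucleus, and both are selective for ERK. Dusp1, Dusp2 and Dusp4 are inducible nuclear enzymes whose targets are not limited to ERK. Dusp1, for example, also acts on p38 and JNK. Sprouty proteins inhibit receptor signalling upstream of or at RAF. Etv4 and Etv5 are ETS factors of the PEA3 group that carry the signal on to other genes, and Etv4 is known for high levels in ERBB2 mammary tumours. The level of these transcripts is widely read as an indicator of ERK output, although each is also under other control.

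Promoter windows of Dusp5 and Dusp1 are shown because these were the members called after docetaxel in the 18-library test, in opposite directions. The windows come from RefSeq (GRCm38.p6) and run from 250 to 51 bases upstream of the gene start on the gene's own strand, 200 bases each. The start is that of RefSeq, which for Dusp1 lies within the longer gene span that GENCODE M21 gives. The Dusp5 window is chr19:53528895-53529094 (plus strand) and that of Dusp1 chr17:26508523-26508722 (minus strand). Capitals mark every match to 4 searched motifs on either strand: the CArG box, which serum response factor binds, the letters TGACGT of CREB and ATF sites, CCGGAA of ETS sites, and TGANTCA of AP-1 sites.
Dusp5: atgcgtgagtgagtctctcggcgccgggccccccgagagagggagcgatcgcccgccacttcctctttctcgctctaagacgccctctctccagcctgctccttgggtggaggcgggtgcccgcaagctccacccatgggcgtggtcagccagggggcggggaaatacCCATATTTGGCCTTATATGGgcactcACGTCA
Dusp1: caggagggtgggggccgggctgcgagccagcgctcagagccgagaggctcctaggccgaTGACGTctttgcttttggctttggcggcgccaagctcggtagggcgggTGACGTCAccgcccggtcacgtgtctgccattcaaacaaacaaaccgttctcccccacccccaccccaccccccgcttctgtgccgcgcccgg
The Dusp5 window held 2 CArG boxes side by side, at 82 to 73 and 72 to 63 bases upstream, and TGACGT on the reverse strand at 56 to 51. The Dusp1 window held TGACGT at 191 to 186, 143 to 138 and 141 to 136 bases upstream, where the last 2 matches overlap on opposite strands. Among 32851 RefSeq promoter windows of the same length, 1.16% held a CArG box and 3 windows, the one of Dusp5 included, held 2 or more (0.00913%). TGACGT was in 4.16% of them, CCGGAA in 8.03% and TGANTCA in 5.57%. Windows were at hand for 7 of the 10 genes (8 windows, as Etv5 has 2 starts), and those of Dusp2, Dusp6, Spry1, Spry2 and Etv5 held none of these letters. These matches describe the sequence and say nothing about binding in the cells.

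Libraries held 7972612 to 18961392 counts. Luminal epithelial markers had counts for 9 of 10 genes (Elf3 had 0), with summed levels of 1218 to 3419 counts per 1e6 counts (CPM). Itgb3 had 32.9 to 130.6 CPM in the rescued lines, against 0.322 to 1.30 CPM in pMx. Transcripts of heart muscle were highest in 2 libraries. The sum of 22 heart markers, of which Nppb was at 0, reached 49010 CPM in culture 2 of Δβ3 docetaxel and 5882 CPM in culture 1 of Δβ3 DMSO, against 196.1 to 2478 CPM in the other 16 libraries. The sums of the fibroblast, endothelial, leukocyte and basal marker lists were also highest in these 2 libraries within their groups. Ribosomal precursor RNA (Rn45s) took 23.6% and 41.5% of the counts of the same libraries and 6.59% to 33.0% in the other 16. Its share also differed by line. It was 10.9% to 33.0% in hβ3, 6.59% to 9.81% in pMx and 6.92% to 10.1% in the remaining Δβ3 libraries. The hβ3 shares overlapped neither those of pMx nor those of the remaining Δβ3 libraries. Contrasts of hβ3 with pMx, and with Δβ3 over 16 libraries, contain this difference too, and its part in them was not tested. In bulk RNA, fewer carcinoma cells and less of a transcript in each cell cannot be told apart. Counts of called members below are therefore given for 18 libraries and again for the 16 without the 2 heart-rich ones. That leaves 2 cultures in each Δβ3 group. A single fold change or p-value with no number of libraries beside it is from all 18. The common biological coefficient of variation was 36.0% with 18 libraries and 13.2% with 16.

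Per kilobase of transcript, Dusp4, Dusp5 and Dusp6 were the most abundant of the 5 phosphatases among the members. They had 194, 168 and 141 CPM per kb on average over the 18 libraries, against 16 for Dusp2 and 15.4 for Dusp1. Other phosphatases were not ranked in this way. Each of these 5 genes has 1 transcript model in the table. Levels per length are not given for the Sprouty and ETS genes, since these have several models and no source used here says how reads shared between models were treated. For Spry2 and Spry4, 1 of 2 models held all counts. For Etv5, 1 of 2 models held 97.05% of the counts, and for Etv4 3 of 6 models had counts, the largest with 58.92%. None of the 5 Spry1 models had a count, and since shared reads may be missing, this does not show the gene to be silent. Fold changes of multi-model genes are uncertain for the same reason, and whether counting used the strand is likewise not given.

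The first question was whether cells with functional integrin β3 differ in these transcripts from cells without it. In DMSO, Dusp2 and Etv4 were lower and Dusp5 was higher in hβ3 than in pMx cells, which made 3 called of the 9 tested members (edgeR quasi-likelihood test, adjusted p under 0.05), against 8.96% of all tested genes. With 16 libraries, Dusp4, Dusp6, Spry2 and Spry4 were called lower as well, 7 of 9 members in all, against 26.7% of all genes. The median log2 fold change of the 9 members was -0.54 over 18 libraries and that of all tested genes was -0.0077, with 8 members below 0. CPM ranges of the 3 hβ3 and 3 pMx cultures did not overlap for 8 members, 7 lower and Dusp5 higher, as was the case for 38.5% of all genes (18.6% lower in hβ3). Dusp1 was the member whose ranges overlapped.

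**Figure D1:**
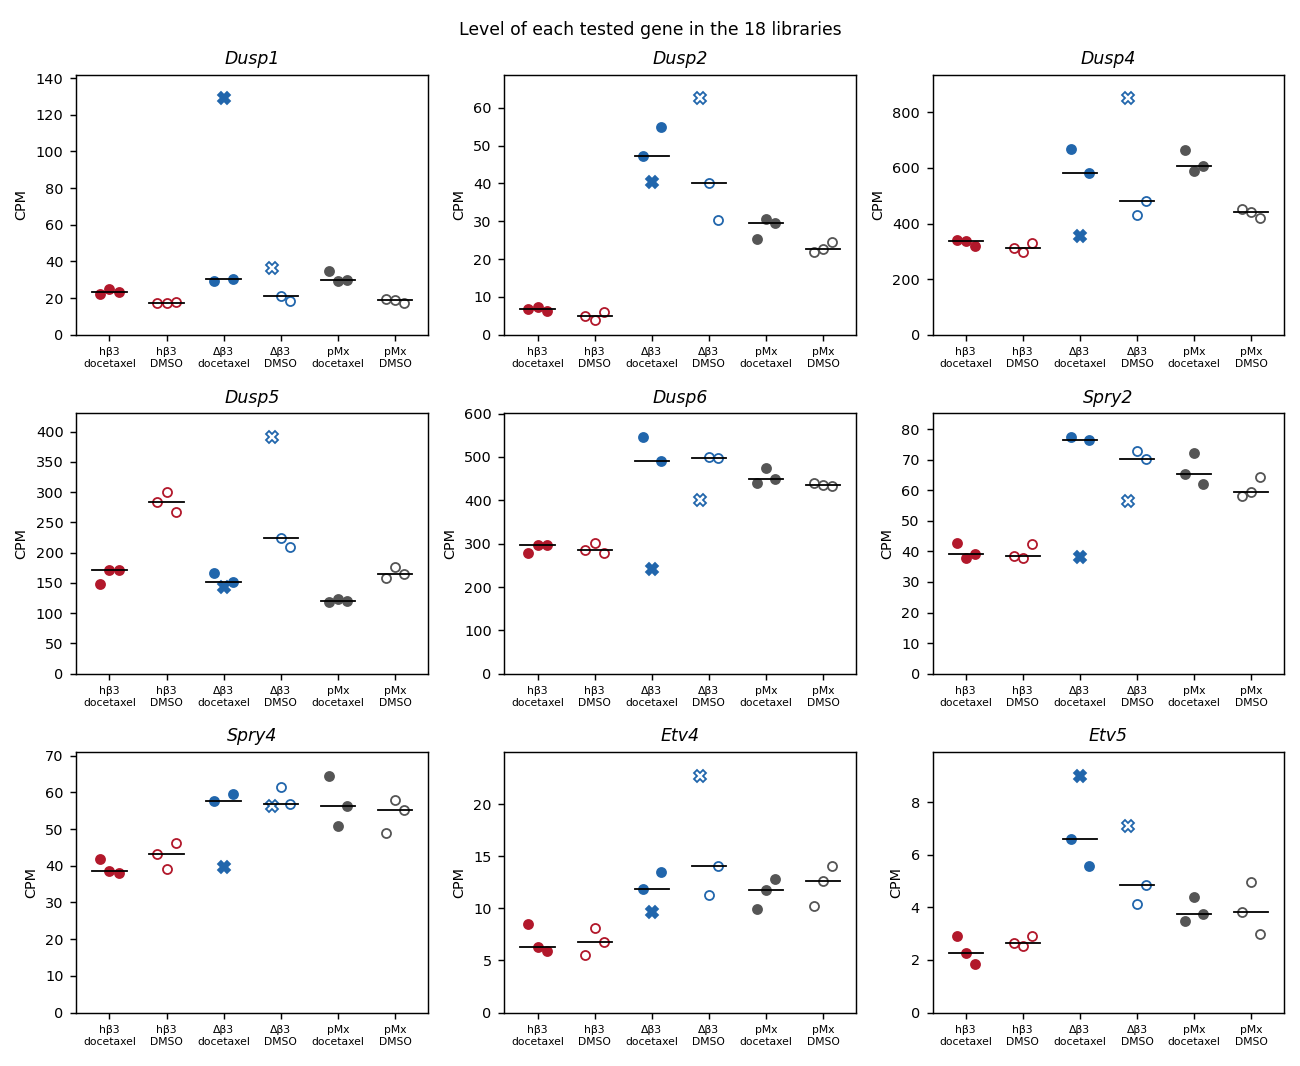
Level of each tested gene (CPM, linear axis from 0) in the 18 libraries by group; filled points are docetaxel, open points DMSO, bars are group medians, and crosses are Δβ3 docetaxel culture 2 and Δβ3 DMSO culture 1. The hβ3 points of Dusp2 lie between 4.03 and 7.34 CPM, below every Δβ3 and pMx point, while the hβ3 DMSO points of Dusp5 lie above those of pMx.

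Against the mutant, hβ3 cells had less of 6 members in DMSO: Dusp2, Dusp4, Dusp6, Spry2, Etv4 and Etv5 (6 of 9, against 6.83% of all genes called lower and 13% in either direction). Without the 2 libraries Spry4 was lower too and Dusp5 was higher, which made 8 of 9 members, against 23.2% of all genes. Their median log2 difference was -0.75 over 18 libraries, against -0.0020 for all genes. For 8 members, all but Dusp5, every hβ3 culture lay below every Δβ3 culture in DMSO, as did 15.9% of all genes, with 32.8% free of overlap in either direction. The comparisons of hβ3 with Δβ3 and with pMx share the hβ3 cultures and are not independent of each other.

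In docetaxel, Dusp2, Dusp4, Spry2 and Spry4 were lower in hβ3 than in pMx cells, 4 of 9 members against 3.82% of all genes called lower and 8.44% in either direction. With 16 libraries all 9 tested members were called, Dusp5 higher and the other 8 lower, against 27.3% of all genes. Ranges did not overlap for any of the 9, as for 43.3% of all genes. Against Δβ3 in docetaxel, Dusp2, Spry2 and Etv5 were lower in hβ3, 3 of 9 members against 5.67% of all genes called lower and 10% in either direction. With 16 libraries 8 members were lower and Dusp5 was not called, against 10.3% of all genes lower and 19.8% in either direction. With all 18, the ranges of 5 members did not overlap (Dusp1, Dusp2, Dusp4, Etv4 and Etv5), against 12.6% of all genes lower and 29.2% in either direction. The heart-rich culture Δβ3 docetaxel 2 reached down to or below the hβ3 range for Dusp6, Spry2 and Spry4.

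Few members were called between Δβ3 and pMx cells. In DMSO all 9 tested members had a log2 difference above 0 in Δβ3 with either set of libraries. Their median was 0.42 with 18 libraries and 0.18 with 16, against 0.015 and -0.01 for all genes. In docetaxel 5 members lay above 0 with 18 libraries (median 0.024, all genes 0.050) and 8 with 16 (0.18, all genes 0.0067). In DMSO no member was called by edgeR with 18 libraries, against 0.0411% of all genes. Of the 9, 2 members were under an unadjusted p of 0.05 (Dusp2 and Dusp5, both higher in Δβ3), as were 10.1% of all genes, and DESeq2 called Dusp2 and Dusp5, against 0.271% of all genes. With 16 libraries Dusp5 was called higher in Δβ3 (1 of 9, against 0.331% of all genes). In docetaxel no member was called by edgeR or DESeq2 with 18 libraries, against 0.0246% and 0.0575% of all genes, while 3 were under an unadjusted p of 0.05 in edgeR (Dusp1, Dusp2 and Etv5), as were 13.8% of all genes. With 16 libraries Dusp2 and Dusp5 were called higher in Δβ3, against 0.46% of all genes. Every Δβ3 culture lay above every pMx culture for Dusp2 and Dusp5 in DMSO, against 16.5% of all genes without overlap in either direction, and for Dusp2, Dusp5 and Etv5 in docetaxel, against 12.2%.

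**Figure D2:**
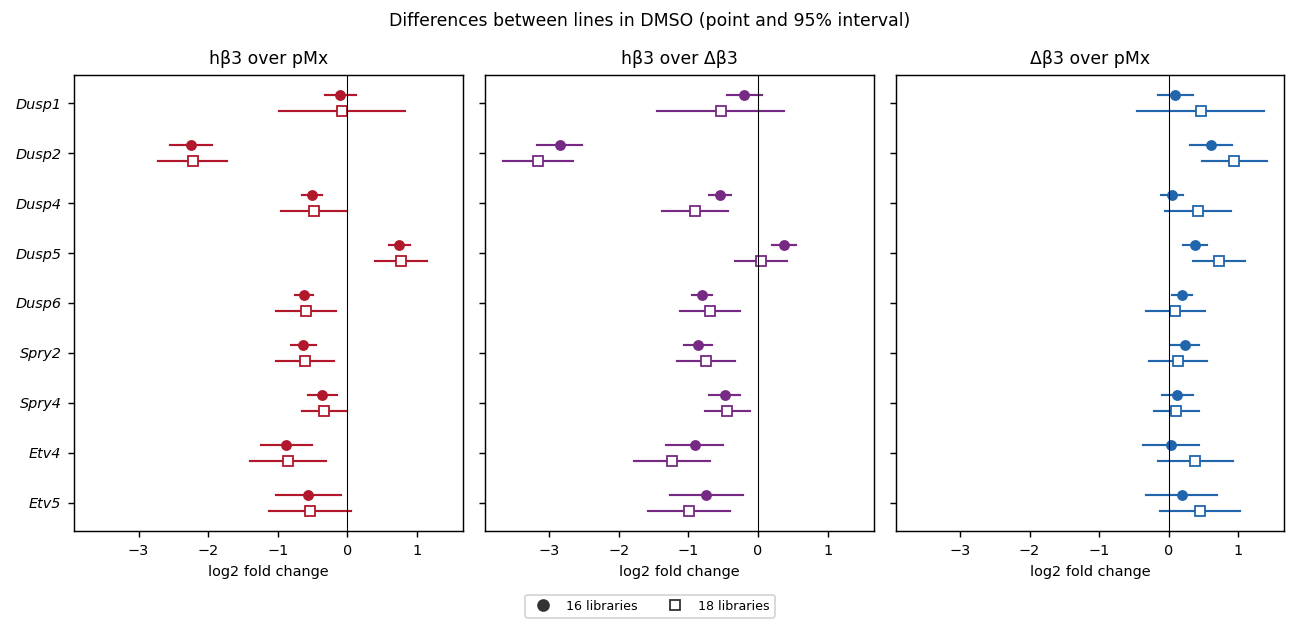
Log2 fold change between lines in DMSO, hβ3 over pMx, hβ3 over Δβ3 and Δβ3 over pMx, for the 9 tested members; points are edgeR estimates and lines their 95% intervals, filled circles 16 libraries and open squares 18. Dusp2 stands farthest below 0 in both hβ3 panels, at -2.25 against pMx and -2.85 against Δβ3 with 16 libraries, and Dusp5 is the member above 0 there.

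Dusp2, the nuclear phosphatase best known from lymphocytes, separated the lines most. In docetaxel it had 6.85, 7.34 and 6.22 CPM in the 3 hβ3 cultures, 47.1, 40.4 and 54.8 in Δβ3 and 25.2, 30.7 and 29.5 in pMx. In DMSO the values were 4.85, 4.03 and 5.96 CPM in hβ3, 62.5, 40.1 and 30.3 in Δβ3 and 22.0, 22.7 and 24.5 in pMx. The 6 hβ3 cultures lay below all others, the Δβ3 cultures lay above the pMx cultures in either medium, and the highest value was that of the heart-rich Δβ3 DMSO culture 1. In DMSO Dusp2 was 4.66-fold lower in hβ3 than in pMx (log2 fold change -2.22 ± 0.23, SE; edgeR adjusted p = 5.93e-06) and 8.95-fold lower than in Δβ3 (-3.16 ± 0.24; adjusted p = 1.47e-07). With 16 libraries these were 4.75-fold and 7.21-fold. In docetaxel it was 4.18-fold lower in hβ3 than in pMx and 6.96-fold lower than in Δβ3 (edgeR adjusted p = 1.61e-05 and 9.94e-07), and 4.22-fold and 7.48-fold with 16. All 4 calls held in each of 18 fits that left out 1 library. Between Δβ3 and pMx in docetaxel, Dusp2 was 1.77-fold higher in Δβ3 with 16 libraries (edgeR adjusted p = 0.00391) and 1.67-fold higher with 18 (adjusted p = 0.348).

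Dusp5, the nuclear phosphatase selective for ERK, went the other way. In docetaxel it had 149, 171 and 172 CPM in hβ3, 166, 144 and 151 in Δβ3 and 118, 123 and 120 in pMx. In DMSO it had 283, 301 and 267 CPM in hβ3, 391, 224 and 210 in Δβ3 and 158, 176 and 165 in pMx. Both rescued lines lay above pMx in either medium, and in each line every docetaxel culture lay below every DMSO culture. In DMSO Dusp5 was 1.71-fold higher in hβ3 than in pMx (log2 fold change 0.77 ± 0.18; edgeR adjusted p = 0.00901; called in all 18 fits that left out 1 library). Its difference between hβ3 and Δβ3 in DMSO turned on Δβ3 DMSO culture 1, which had 391 CPM: it was 0.04 ± 0.18 on the log2 scale with 18 libraries and 0.37 ± 0.08 with 16 (edgeR adjusted p = 0.907 and 0.00135). In docetaxel, hβ3 exceeded pMx 1.36-fold with 18 libraries and 1.35-fold with 16, and the call depended on the set of libraries (edgeR adjusted p = 0.147 with 18 and 6.85e-05 with 16).

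Dusp6, the cytoplasmic phosphatase selective for ERK and often used as a readout of its activity, was lower in hβ3. In docetaxel it had 278, 298 and 298 CPM in hβ3, 546, 241 and 491 in Δβ3 and 440, 474 and 449 in pMx. In DMSO it had 285, 301 and 279 CPM in hβ3, 400, 501 and 497 in Δβ3 and 440, 435 and 434 in pMx. The hβ3 cultures lay below all others except Δβ3 docetaxel culture 2, which had 241 CPM and is the library richest in heart transcripts. In DMSO Dusp6 was 1.61-fold lower in hβ3 than in Δβ3 (log2 fold change -0.69 ± 0.20; edgeR adjusted p = 0.0316) and 1.51-fold lower than in pMx, which edgeR did not call with 18 libraries (adjusted p = 0.0823) and DESeq2 did (adjusted p = 0.028). With 16 libraries the folds were 1.75 and 1.53 (edgeR adjusted p = 1.45e-09 and 2.47e-08). The call against Δβ3 held in 7 of the 18 fits that left out 1 library.

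Dusp4, an ERK-induced nuclear phosphatase and the most abundant member, was lowest in hβ3 as well. In docetaxel it had 340, 337 and 321 CPM in hβ3, 670, 355 and 583 in Δβ3 and 663, 588 and 606 in pMx. In DMSO it had 314, 299 and 329 CPM in hβ3, 851, 430 and 480 in Δβ3 and 454, 441 and 420 in pMx. No hβ3 culture reached any Δβ3 or pMx culture, and the widest spread was in Δβ3, where the heart-rich cultures had 355 and 851 CPM. In DMSO Dusp4 was 1.87-fold lower in hβ3 than in Δβ3 (log2 fold change -0.90 ± 0.22; edgeR adjusted p = 0.0123), and 1.46-fold lower with 16 libraries. Against pMx in DMSO it was 1.40-fold lower with 18 libraries (edgeR adjusted p = 0.248) and 1.42-fold with 16 (adjusted p = 3.60e-06), and in docetaxel 1.86-fold lower with 18 (adjusted p = 0.0179). Dusp1, the immediate-early member, had 22.2, 25.1 and 23.3 CPM in hβ3 docetaxel, 29.4, 129 and 30.6 in Δβ3 docetaxel and 34.7, 29.5 and 30.1 in pMx docetaxel. Its DMSO values were 17.4, 17.2 and 17.9 CPM in hβ3, 36.6, 21.2 and 18.4 in Δβ3 and 19.5, 18.8 and 17.3 in pMx. The values of 129 and 36.6 CPM are those of the heart-rich libraries, and apart from them the lines lay close together in DMSO. Between lines edgeR did not call Dusp1 in any comparison with 18 libraries. It came nearest as 2.66-fold lower in hβ3 than in Δβ3 docetaxel cultures (edgeR adjusted p = 0.05, rounded from above the threshold), which DESeq2 called (adjusted p = 0.00656). With 16 it was lower in hβ3 docetaxel cultures, 1.35-fold against pMx and 1.28-fold against Δβ3 (edgeR adjusted p = 0.00318 and 0.0320).

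Both measured Sprouty genes were lower in hβ3 cells. Spry2 had 42.6, 38.0 and 39.2 CPM in hβ3 docetaxel, 77.4, 38.3 and 76.4 in Δβ3 docetaxel and 65.2, 72.2 and 62.0 in pMx docetaxel. In DMSO it had 38.5, 37.9 and 42.4 CPM in hβ3, 56.5, 73.0 and 70.1 in Δβ3 and 58.1, 59.3 and 64.2 in pMx. The 38.3 CPM of Δβ3 docetaxel culture 2 was the one value from another line within the hβ3 range. In DMSO Spry2 was 1.68-fold lower in hβ3 than in Δβ3 (log2 fold change -0.75 ± 0.20; edgeR adjusted p = 0.0182; called in 14 of 18 fits that left out 1 library) and 1.53-fold lower than in pMx (adjusted p = 0.0679, and 3.78e-06 with 16 libraries). Spry4 had 41.9, 38.6 and 38.1 CPM in hβ3 docetaxel, 57.6, 39.6 and 59.7 in Δβ3 docetaxel and 64.5, 50.8 and 56.3 in pMx docetaxel. Its DMSO values were 43.3, 39.1 and 46.1 CPM in hβ3, 56.2, 61.4 and 56.9 in Δβ3 and 49.0, 58.0 and 55.1 in pMx. Again only Δβ3 docetaxel culture 2, at 39.6 CPM, fell within the hβ3 range. Spry4 was 1.45-fold lower in hβ3 than in pMx in docetaxel (log2 fold change -0.53 ± 0.15; edgeR adjusted p = 0.0387; called in 8 of 18 fits that left out 1 library). In DMSO the difference was 1.26-fold with 18 libraries and 1.28-fold with 16 (edgeR adjusted p = 0.237 and 0.00767).

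The ETS factors had the lowest mean CPM over the 18 libraries of the tested members and were lower in hβ3 too. Etv4 had 8.53, 6.27 and 5.88 CPM in hβ3 docetaxel, 11.9, 9.62 and 13.5 in Δβ3 docetaxel and 9.95, 11.8 and 12.8 in pMx docetaxel. In DMSO it had 5.54, 8.12 and 6.74 CPM in hβ3, 22.7, 11.3 and 14.1 in Δβ3 and 10.2, 12.6 and 14.1 in pMx. All hβ3 cultures lay below all others, and the highest value was again Δβ3 DMSO culture 1. Etv4 was 2.35-fold lower in hβ3 than in Δβ3 in DMSO (log2 fold change -1.24 ± 0.26; edgeR adjusted p = 0.00368; 1.88-fold with 16 libraries). It was 1.81-fold lower than in pMx (edgeR adjusted p = 0.0467), a call kept in 3 of the 18 fits that left out 1 library. The 2 largest Etv4 models differed in the size of these differences and in the order of Δβ3 and pMx. In DMSO the 1570-base model averaged 3.58 CPM in hβ3, 12.1 in Δβ3 and 6.26 in pMx over 18 libraries. The 1556-base model averaged 2.7, 3.5 and 5.71 CPM in the same groups. Etv5 had 2.92, 2.28 and 1.85 CPM in hβ3 docetaxel, 6.61, 9 and 5.56 in Δβ3 docetaxel and 3.49, 4.39 and 3.75 in pMx docetaxel. Its DMSO values were 2.63, 2.54 and 2.91 CPM in hβ3, 7.11, 4.11 and 4.85 in Δβ3 and 3.81, 4.97 and 2.97 in pMx. The hβ3 values lay lowest in each medium, with Δβ3 above pMx in docetaxel. Etv5 was 2.98-fold lower in hβ3 than in Δβ3 in docetaxel (log2 fold change -1.57 ± 0.28; edgeR adjusted p = 0.00167; 2.59-fold with 16 libraries; called in all 18 fits that left out 1 library). A fit on the 2 compared groups alone did not call it (edgeR adjusted p = 0.0549). Against pMx in DMSO the log2 difference of Etv5 was -0.54 with 18 libraries (95% interval -1.12 to 0.05; edgeR adjusted p = 0.318) and -0.56 with 16 (-1.03 to -0.09; adjusted p = 0.0731), called with neither.

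The second question was how docetaxel changed these transcripts. As the mean of the 3 lines, Dusp5 fell and Dusp1 rose, 2 of 9 members against 15.5% of all tested genes, and with 16 libraries Dusp2 and Dusp4 rose as well, 4 of 9 against 30%. Dusp6, both measured Sprouty genes and both ETS factors were not called in any line with either set of libraries. The median log2 change of the 9 members was 0.03 and that of all genes 0.06 over 18 libraries (0.09 and 0.02 over 16). In hβ3, Dusp5 was called with 18 libraries (1 of 9, against 1.16% of all genes) and Dusp1, Dusp2 and Dusp5 with 16 (3 of 9, against 12.4%). In Δβ3, Dusp5 was called with 18 libraries (1 of 9, against 6.85%) and Dusp1, Dusp2, Dusp4 and Dusp5 with 16 (4 of 9, against 11.3%). In pMx no member was called with 18 libraries by edgeR or DESeq2, against 3.61% and 6.89% of all genes. Dusp4 and Dusp5 were under an unadjusted p of 0.05 there, as were 15.3% of all genes, and Dusp1, Dusp4 and Dusp5 were called with 16 (3 of 9, against 21.2%).

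**Figure D3:**
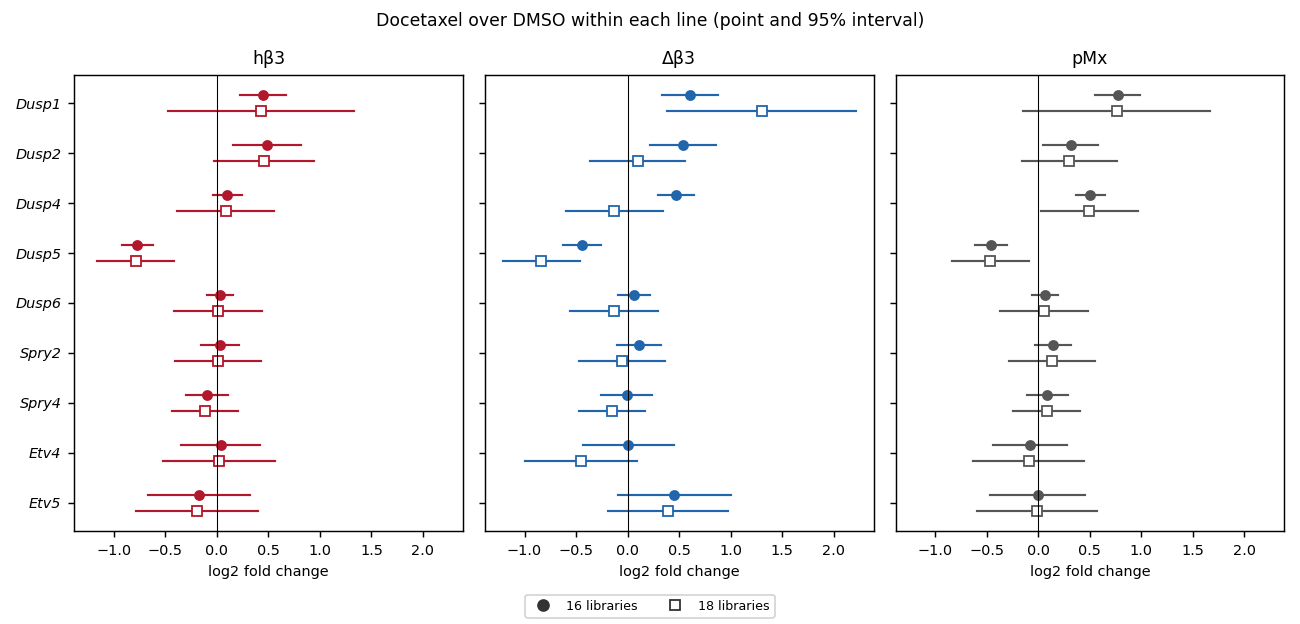
Log2 fold change of docetaxel over DMSO within each line (hβ3, Δβ3, pMx) for the 9 tested members; points are edgeR estimates and lines their 95% intervals, filled circles 16 libraries and open squares 18. Dusp5 lies below 0 in all 3 lines (-0.77, -0.44 and -0.46 with 16 libraries), and the Dusp4 point of hβ3 (0.10) lies left of those of Δβ3 (0.47) and pMx (0.51).

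Dusp5 fell 1.62-fold in docetaxel as the mean of the lines (log2 fold change -0.70 ± 0.10; edgeR adjusted p = 0.000168; called in all 18 fits that left out 1 library). Within lines, the docetaxel level was lower by 1.73-fold in hβ3, 1.79-fold in Δβ3 and 1.38-fold in pMx with 18 libraries (edgeR adjusted p = 0.0349, 0.0108 and 0.187), and 1.71-, 1.36- and 1.37-fold with 16. The 18-library call in hβ3 held in 7 of the 18 fits that left out 1 library, with an adjusted p of up to 0.2, and that in Δβ3 held in all 18. Fits on the 2 compared groups alone called Dusp5 in hβ3 and pMx and not in Δβ3, where the edgeR adjusted p was 0.585 and no gene at all was called. Docetaxel and DMSO ranges of Dusp5 did not overlap in any line. Dusp1 rose 1.78-fold as the mean of the lines with 18 libraries (log2 fold change 0.83 ± 0.25; edgeR adjusted p = 0.0326). The 129 CPM of Δβ3 docetaxel culture 2 weighs on this value: without that culture the log2 change was 0.49 (adjusted p = 0.00438), and with 16 libraries it was 0.61 ± 0.07, a rise of 1.52-fold (adjusted p = 1.03e-07). The Dusp1 call held in 5 of 18 fits that left out 1 library, with adjusted p from 0.00438 to 0.0636. With 16 libraries Dusp1 rose in each line, 1.36-fold in hβ3, 1.52-fold in Δβ3 and 1.71-fold in pMx (edgeR adjusted p = 0.00572, 0.00263 and 7.73e-06).

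Dusp2 and Dusp4 rose with the 16 libraries, and each was also called in 1 of the 18 fits that left out 1 library, but not with all 18. Dusp2 was 1.36-fold higher in docetaxel as the mean of the lines with 16 (edgeR adjusted p = 0.000267), against 1.22-fold with 18 (adjusted p = 0.150). Dusp4 was 1.28-fold higher with 16 (edgeR adjusted p = 4.22e-07), against 1.11-fold with 18 (adjusted p = 0.485). In Δβ3 the direction of Dusp4 turned with the libraries: its log2 change was -0.13 ± 0.22 with 18 (adjusted p = 0.738) and 0.47 ± 0.08 with 16 (adjusted p = 0.00045). Ranges of docetaxel and DMSO cultures did not overlap for Dusp1, Dusp2 and Dusp5 in hβ3 (3 members, against 29% of all genes), for Dusp5 in Δβ3 (1 member, against 18.1%) and for Dusp1, Dusp2, Dusp4 and Dusp5 in pMx (4 members, against 35.1%). For the members that were not called, the 16-library intervals bound the mean change. The log2 change of Dusp6 lay between -0.03 and 0.13, that of Spry2 between -0.02 and 0.21 and that of Spry4 between -0.13 and 0.12. The ETS factors had wider intervals, of -0.24 to 0.22 for Etv4 and -0.20 to 0.38 for Etv5.

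The third question was whether the lines differed in their docetaxel response, which the interaction terms test. With 18 libraries no member was called for any pair of lines by edgeR or DESeq2, and none was under an unadjusted p of 0.05 in edgeR. Of all genes, edgeR called 0.00822% for hβ3 against pMx, 0.0411% for hβ3 against Δβ3 and 0% for Δβ3 against pMx, DESeq2 called 0.197%, 0.304% and 0%, and 3.62%, 8.64% and 4.28% were under an unadjusted p of 0.05. With 16 libraries Dusp4 was called, 1 of 9 members against 2.3% of all genes: its log2 response in hβ3 minus that in pMx was -0.40 ± 0.10 (edgeR adjusted p = 0.0255). The Dusp4 response with 16 libraries was 1.07-fold in hβ3 and 1.42-fold in pMx. Its response in hβ3 minus that in Δβ3 was -0.37 ± 0.11 with 16 libraries (adjusted p = 0.166), and 0.21 ± 0.32 with 18. Dusp5 and Dusp1 were under an unadjusted p of 0.05 for hβ3 against pMx with 16 libraries, with response differences of -0.31 and -0.33, as were 15.6% of all genes, and were not called. The Dusp5 response in hβ3 minus that in Δβ3 was -0.33 ± 0.12 with 16 libraries (edgeR unadjusted p = 0.00912, adjusted p = 0.295), and 0.05 ± 0.25 with 18. Against this, 0.606% of all genes were called for hβ3 against Δβ3 and 0% for Δβ3 against pMx with 16 libraries, and no member was among them.

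**Figure D4:**
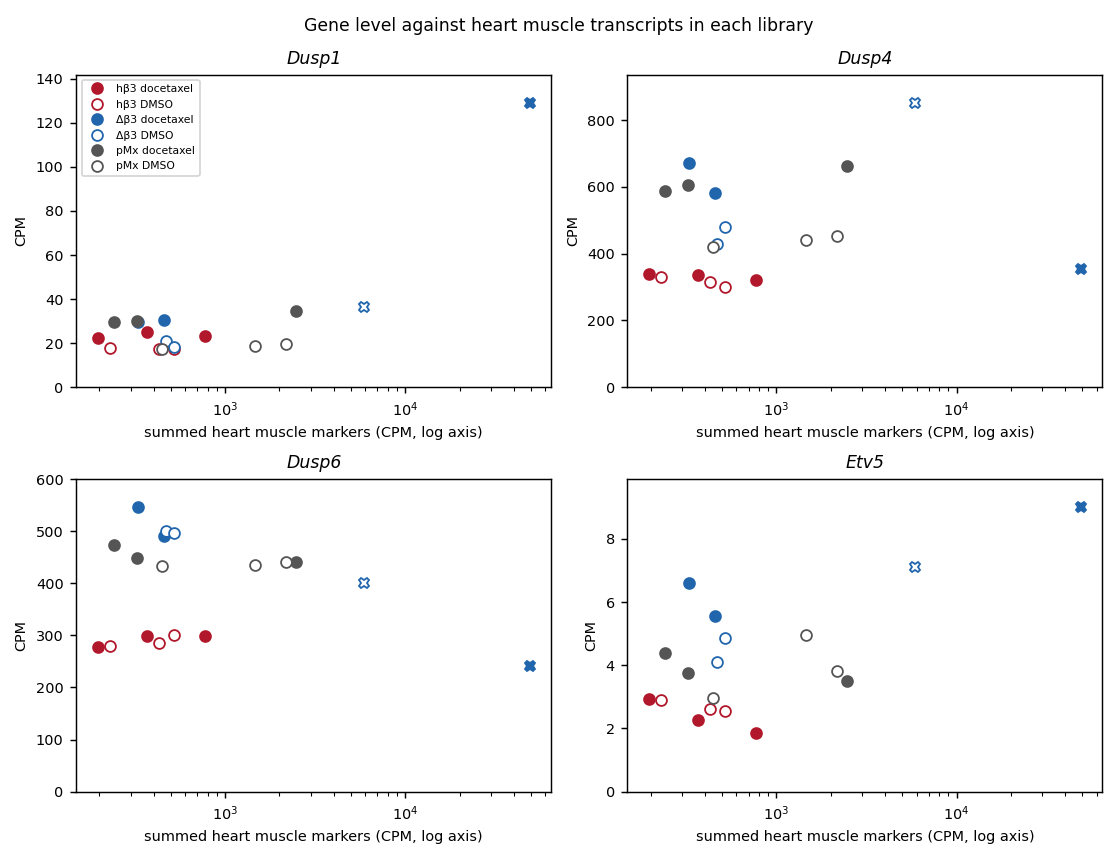
Level of Dusp1, Dusp4, Dusp6 and Etv5 (CPM) against the summed level of 22 heart muscle markers (CPM, log axis) in each of the 18 libraries; colours are lines, filled points docetaxel, open points DMSO, and crosses the 2 heart-rich Δβ3 libraries. The crosses at 5882 and 49010 CPM of heart markers hold 36.6 and 129 CPM of Dusp1, the highest values of that gene.

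In the 2 heart-rich libraries the members did not shift in 1 direction. In Δβ3 docetaxel culture 2, Dusp1 and Etv5 were above both other cultures of the group, at 129 and 9 CPM, while Dusp4, Dusp5, Dusp6, Spry2, Spry4, Etv4 and Dusp2 were below both. In Δβ3 DMSO culture 1, Dusp1, Dusp2, Dusp4, Dusp5, Etv4 and Etv5 were above both other cultures, and Dusp6, Spry2 and Spry4 were below both. The part of the heart transcripts in these values was not tested. Heart marker sums were also uneven among the 16 libraries, at 196.1 to 771.3 CPM in hβ3 and 241.0 to 2478 CPM in pMx. Among these 16 they were highest in pMx docetaxel culture 1 (2478 CPM) and pMx DMSO cultures 1 and 2 (2169 and 1457 CPM). The 16-library contrasts with pMx therefore contain this difference, and its part in them was not tested.

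The other genes of the pathway, taken from 4 lists, did not all follow the feedback genes. Of the 7 other MAP kinase phosphatases, 3 were higher and 0 lower in hβ3 than in pMx in DMSO with 18 libraries, and 5 higher and 1 lower with 16. These counts and those of the other lists in this comparison stand against 8.96% of all genes called in either direction with 18 libraries and 26.7% with 16. Dusp3, Dusp7 and Dusp10, of which Dusp10 acts on p38 and JNK and Dusp7 on ERK, were the named ones, at 2.24-, 1.60- and 2.01-fold (edgeR adjusted p = 0.0217, 0.000772 and 0.00792). Dusp3 averaged 262.8 CPM in hβ3 and 117.5 CPM in pMx. Of 13 tested genes among 14 other feedback inhibitors, 0 were higher and 2 lower with 18 libraries, and 1 higher and 5 lower with 16. Rasa1, a RAS GTPase-activating protein, averaged 340.3 CPM in hβ3, 816.7 in Δβ3 and 626.8 in pMx, and was lower in hβ3 than in pMx by a log2 fold change of -0.88 ± 0.19 (edgeR adjusted p = 0.00532; -0.90 ± 0.07 with 16 libraries). The Δβ3 mean covers cultures from 610 to 1190 CPM, the heart-rich culture 1 included. With 16 libraries the log2 fold change of Rasa1 in hβ3 against Δβ3 was -0.91 ± 0.08, close to that against pMx. Spred1, a Sprouty-related inhibitor of RAF activation, was called lower with 16 libraries (-0.79 ± 0.08). Il17rd (Sef), an inhibitor of FGF signalling, was called lower too, on averages of 0.0935 CPM in hβ3 and 0.722 CPM in pMx.

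Among the kinases and adaptors of the cascade, 20 of 25 genes were tested, and 0 were higher and 1 lower in hβ3 than in pMx in DMSO with 18 libraries (5 and 2 with 16). The one called was Shc1, an adaptor of receptor tyrosine kinases, at 14.9 CPM in hβ3, 59.6 in Δβ3 and 35.8 in pMx on average. The Δβ3 mean of Shc1 covers cultures from 37.6 to 99.1 CPM, the heart-rich culture 1 included. With 16 libraries the log2 fold change of Shc1 in hβ3 was -1.284 ± 0.123 against pMx and -1.435 ± 0.134 against Δβ3. Map2k1, which encodes MEK1, was 1.33-fold higher in hβ3 with 16 libraries. Of 17 tested genes among 20 other transcripts that ERK induces, 5 were higher and 0 lower with 18 libraries, and 8 higher and 3 lower with 16. Hbegf, an EGF receptor ligand, averaged 201.9 CPM in hβ3 and 83.2 in pMx (log2 fold change 1.28 ± 0.14; edgeR adjusted p = 1.21e-05; 1.26 ± 0.08 with 16 libraries). Fosl1, an AP-1 subunit, averaged 117.5 and 45.4 CPM in the same lines, and the receptor Epha2 1208 and 686.1 CPM. Epha4, also a receptor tyrosine kinase, averaged 75.3 CPM in hβ3 and 19.7 CPM in pMx. Egr1, an immediate-early transcription factor, averaged 20.6 CPM in hβ3, 133.0 in Δβ3 and 16.3 in pMx, and was lower in hβ3 than in Δβ3 by a log2 fold change of -2.69 ± 0.40 (edgeR adjusted p = 0.00033; -2.83 ± 0.15 with 16 libraries). None of these lists was tested as a whole.

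**Figure D5:**
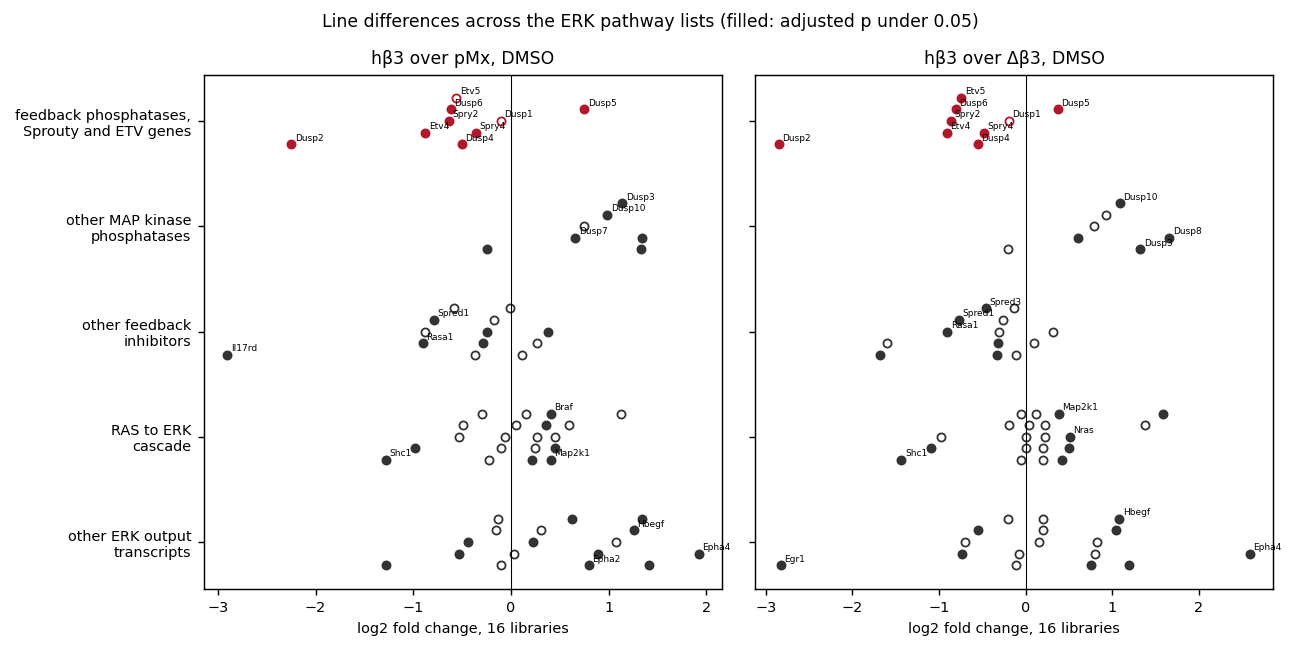
Log2 fold change (16 libraries) of each tested gene in DMSO, hβ3 over pMx on the left and hβ3 over Δβ3 on the right, by list; filled points have an edgeR adjusted p under 0.05. Of the 9 feedback phosphatase, Sprouty and ETV genes 8 lie left of 0 in both panels, while 5 of 7 other MAP kinase phosphatases are called to the right in the left panel.

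In docetaxel as the mean of the lines, 0 of the 7 other phosphatases rose and 2 fell with 18 libraries, Dusp9 by a log2 fold change of -0.72 ± 0.10 and Dusp7 by -0.22 ± 0.07 (edgeR adjusted p = 7.63e-05 and 0.0282). With 16 libraries 1 rose and 3 fell, and the one that rose was Dusp10, by 0.39 ± 0.05 (edgeR adjusted p = 4.39e-06). Dusp9 averaged 210.7 CPM in docetaxel and 297.0 in DMSO in hβ3, 224.9 and 417.9 in Δβ3 and 203.6 and 347.7 in pMx. Its Δβ3 DMSO cultures ran from 330 to 574 CPM, the heart-rich one included. None of the 13 other feedback inhibitors was called with 18 libraries, and 1 rose and 1 fell with 16. Of the cascade genes 0 rose and 1 fell with 18 libraries, and with 16 Shc1 rose (0.62 ± 0.07; edgeR adjusted p = 3.80e-07) and 1 fell. Of the other ERK-induced transcripts 1 rose and 4 fell with 18 libraries, and 4 rose and 5 fell with 16. Over all genes, 15.5% were called in either direction with 18 libraries and 30% with 16. Egr1 was the one that rose with 18, by a log2 fold change of 0.90 ± 0.22 (edgeR adjusted p = 0.0115). It averaged 26.2 CPM in docetaxel and 20.6 in DMSO in hβ3, 170.8 and 133.0 in Δβ3 and 65.0 and 16.3 in pMx. Its Δβ3 docetaxel cultures ran from 50.5 to 255 CPM, the heart-rich one included. Within lines, 0 genes of this list were called higher in hβ3 and in Δβ3 with 18 libraries, and 1 in pMx. Hbegf and Epha2 were among those that fell in the mean of the lines, by -0.39 ± 0.08 and -0.37 ± 0.07 (edgeR adjusted p = 0.00353 and 0.00181).

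Likeness was measured for the 4 members whose group levels span at least 1 on the log2 scale, as the root mean square difference of centred log2 group medians over the 6 groups and 18 libraries, against 8491 other symbols with a mean of at least 2 CPM (pseudocount 0.01 CPM). For Dusp2 the nearest were St6gal1 at 0.233, Alcam at 0.251 and Lgals7 at 0.254. For Dusp5 they were Pgp at 0.0806, Eif5a at 0.0839 and Siah2 at 0.0868. Etv4 was nearest to Nr2f2 at 0.0677, Ccdc85c at 0.0814 and the RAS regulator Rasa1 at 0.112. Etv5 was nearest to Plxna4 at 0.121, Nptxr at 0.126 and Mink1 at 0.139. No test was made of these distances.

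By group medians, Dusp2 stood highest in Δβ3 docetaxel and lowest in hβ3 DMSO (a span of 3.28 on the log2 scale between group medians over 18 libraries), Etv5 highest in Δβ3 docetaxel and lowest in hβ3 docetaxel (1.53), and Dusp5 highest in hβ3 DMSO and lowest in pMx docetaxel (1.24). Etv4 spanned 1.17, Spry2 0.99, Dusp4 0.95, Dusp1 0.82, Dusp6 0.80 and Spry4 0.58. For Dusp4, Dusp6, Spry2, Spry4, Etv4 and Etv5 the hβ3 docetaxel and hβ3 DMSO groups were the 2 lowest, and their ranges overlapped with each other. In mm10 with the GENCODE M21 annotation the members, all protein coding, lie on 10 different chromosomes: Dusp1 at chr17:26505590-26562128, Dusp2 at chr2:127336159-127338376, Dusp4 at chr8:34807297-34819894, Dusp5 at chr19:53529109-53542431, Dusp6 at chr10:99263231-99267489, Spry1 at chr3:37639947-37644598, Spry2 at chr14:105891947-105896819, Spry4 at chr18:38586247-38601415, Etv4 at chr11:101769742-101785371 and Etv5 at chr16:22381309-22439719.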

How the data were processed

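RNA was measured in 18 libraries, made per the labels after removal of ribosomal RNA and read as single-end reads. The authors deposited raw read counts per transcript model, made with FastQC, HISAT2 and featureCounts on mm10 per the submitters' processing notes. Versions, annotation, strand setting and the handling of shared reads are given in none of the sources used. Model lengths stand in the deposited table too, in bases, a unit of its own, and served for levels per kilobase. Counts of 63759 models were summed to 32765 symbols, of which 13159 had several models.

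Tests used R 4.3.3 and edgeR 4.0.16: filterByExpr, TMM scaling and the two-sided robust quasi-likelihood F-test, with 1 coefficient per group over 18 libraries, and adjusted p (Benjamini-Hochberg) under 0.05 over all tested symbols. CPM are counts per 1e6 of the scaled library size. SE and 95% intervals come from the F statistic. The second fit, without Δβ3 DMSO culture 1 and Δβ3 docetaxel culture 2, and DESeq2 1.42.0, RLE scaling, other filters, a replicate block, fits on the compared groups alone, 1 model per symbol and leaving out each library were alternatives. Per comparison and list, up to 3 called genes with the smallest p were named, and likeness was given for members with a span of at least 1. The members and lists were chosen with earlier results of these data known.

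The test was checked on simulated counts. Each gene was drawn with the spread estimated over 18 libraries, the same in every group, and genes with few counts were not among those changed. The 2 heart-rich libraries were not imitated, so the shares below hold for that setting and not for each contrast here. For hβ3 against pMx in DMSO with 11909 genes it recovered 23% of changes of 1 on the log2 scale and 2% of changes of 0.5, with 0 false calls. For the mean docetaxel change with 11775 genes it recovered 82% and 20%, with 5 false calls.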

Additional observations from a re-analysis of the deposited data

Results flagged for a closer look

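The docetaxel response of Dusp4 differed between hβ3 and pMx by a test of the difference itself with 16 libraries, and was not called with 18. With 16 libraries its log2 response in hβ3 minus that in pMx was -0.405 ± 0.10 (SE; edgeR adjusted p = 0.0255), where 2.3% of all genes were called. Dusp4 had 340, 337 and 321 CPM in hβ3 docetaxel, against 314, 299 and 329 CPM in hβ3 DMSO. It had 663, 588 and 606 CPM in pMx docetaxel, against 454, 441 and 420 CPM in pMx DMSO. The same value over 18 libraries was -0.41 ± 0.32, with an adjusted p of 1. Over all alternatives the adjusted p of this Dusp4 difference ran from 0.011 to 1. No hβ3 or pMx culture was among the 2 left out.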

How the results depend on the processing

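With 16 libraries 4 members were called for the mean docetaxel change, against 30% of all genes (2 and 15.5% with 18). Within lines the docetaxel change had 3 and 12.4% in hβ3 (1 and 1.16%), 4 and 11.3% in Δβ3 (1 and 6.85%) and 3 and 21.2% in pMx (0 and 3.61%). In DMSO, hβ3 against pMx had 7 and 26.7% (3 and 8.96%), hβ3 against Δβ3 8 and 23.2% (6 and 13%) and Δβ3 against pMx 1 and 0.331% (0 and 0.0411%). In docetaxel the same pairs had 9 and 27.3% (4 and 8.44%), 8 and 19.8% (3 and 10%) and 2 and 0.46% (0 and 0.0246%). The response difference of hβ3 and pMx had 1 and 2.3% (0 and 0.00822%). The 16 libraries with a replicate block, added after seeing the data, gave the same numbers of members. In the same order, the shares of all genes were 30%, 13.7%, 9.7%, 23%, 28%, 23.7%, 0.363%, 29.1%, 20.6%, 0.904% and 3.83%. DESeq2 called 2 members for docetaxel in Δβ3 (13.2% of all genes), 5 for hβ3 against pMx in DMSO (11.8%), 2 for Δβ3 against pMx in DMSO (0.271%) and 8 for hβ3 against Δβ3 in docetaxel (15.1%), and edgeR with RLE factors called 5 for the last (10.3%). Without a filter on low counts 1 member was called for the mean docetaxel change (7.33% of all genes). With 1 model per symbol 2 members were called for hβ3 against pMx in DMSO (8.95%) and 4 for hβ3 against Δβ3 in docetaxel (10.1%). Fits on the compared groups alone called 2 members for docetaxel in hβ3, 0 in Δβ3 and 3 in pMx (13.1%, 0% and 20.5% of all genes), 7 and 3 for hβ3 against pMx and against Δβ3 in DMSO (26.2% and 7.76%), 9 and 1 for the same pairs in docetaxel (30.4% and 2.81%) and 1 for the response difference of hβ3 and pMx (1.83%). The same fits on 16 libraries, also added after seeing the data, called 2, 4, 3, 7, 9 and 8 for those compared in hβ3, Δβ3, pMx, hβ3 against pMx in DMSO and both pairs in docetaxel, and 1 for that response difference, against 13.1%, 19.7%, 20.5%, 26.2%, 30.4%, 30.5% and 1.83% of all genes.

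Of 117 log2 values of the members, 20 had another sign with 16 libraries than with 18, and 19 of these were called in neither fit. The one that was called was Dusp4 under docetaxel in Δβ3, at -0.13 with 18 libraries, 0.47 with 16, 0.41 with 16 and the replicate block and 0.47 with 16 and the compared groups alone. The cause was not tested. Over the fits that left out 1 library 33 values took both signs, and 32 of these were not called with 18 libraries or in any such fit. Leaving out 1 library at a time gave 1 to 4 called members for the mean docetaxel change, 0 to 1 in hβ3, 1 to 2 in Δβ3, 0 to 1 in pMx, 2 to 6 and 3 to 8 for hβ3 against either other line (pMx, then Δβ3) in DMSO, 1 to 7 and 2 to 7 for the same pairs in docetaxel, and 0 to 0 for the other 5 comparisons. The share of all genes called ran from 11.2% to 21% for the mean docetaxel change, 0.489% to 4.45% in hβ3, 4.57% to 13.2% in Δβ3, 1.18% to 9.65% in pMx, 5.51% to 15.5% and 7.59% to 23% for hβ3 against pMx and Δβ3 in DMSO and 4.5% to 15.6% and 4.66% to 21% in docetaxel.

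The replicate block over 18 libraries lost 4 calls: Dusp5 under docetaxel in hβ3 (0 members called there, adjusted p = 0.0622), Etv4 for hβ3 against pMx in DMSO (0.0719), Spry4 for hβ3 against pMx in docetaxel (0.0503) and Spry2 for hβ3 against Δβ3 in docetaxel (0.0615). The samples share only a number: of 45 same-numbered pairs 18 had deviations correlated over 0.1 (median 0.050, against -0.027 for other pairs), 1 of 15 group pairs had all pairs over 0.1, and 10 of 18 libraries correlated best with their own number.

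Among the tested members depth limits Etv5 most, with 22 to 106 counts per library. Spry1 was at 0, and no cause of this was tested. Only 2 cultures remain in each Δβ3 group with 16 libraries.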
